A study of Caenorhabditis elegans with 8 samples.

Results

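The piRNA-rich domains of chromosome IV of Caenorhabditis elegans are described here as chromatin: how often their DNA was cut by the oocytes' own nuclease, how regularly, and how their nucleosomes were spaced. The left domain was taken as IV:4500001-7000000 and the right domain as IV:13500001-17200000, positions as the deposited lists number them, with no genome build given in the sources used here. In windows of 1 kb the left domain held 2500 and the right domain 3700, together 6200 of the 17493 windows of chromosome IV and of the 100252 windows of the 6 chromosomes. The other 11293 windows of chromosome IV, called the rest below, are the arm left of the left domain (4500 windows), the stretch between the domains (6500) and the right end of the chromosome (293).

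A piRNA is a short RNA that guides an Argonaute protein of the PIWI class and keeps foreign or transposon-like sequence silent in the germline. In C. elegans these RNAs are the 21U-RNAs, bound by the PIWI protein PRG-1. Most are transcribed one by one from very small genes of their own, which are scattered through introns and intergenic DNA of this chromosome, and many of these genes carry a conserved motif upstream of their start. The domains are also known for DNA in which short runs of A or T recur with the helical period. In the RefSeq annotation of WBcel235, 14714 of 15363 genes of the piRNA class (95.8%) lie on chromosome IV, against 202 on V, 162 on X, 109 on II, 98 on I and 78 on III. These genes were not placed on the windows, because the lists name no build, and no RNA was measured, so the label of the domains was not checked against piRNA levels. No sequence is printed for the same reason.

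All 8 libraries came from purified unfertilized oocytes of fer-1(b232) hermaphrodites, which make defective sperm when grown at the restrictive temperature. These oocytes copy their DNA without dividing, and their chromatin is cut by an endogenous nuclease. In 7 libraries the fragments left by that nuclease (endo-cleaved DNA) were size-selected, and in the other nuclear DNA was cut by added MNase to nucleosome core length, about 150 bp. Each size range was sequenced once, so that no library has a replicate. The single-end endo-cleaved libraries were labelled 40-90, 90-140 and 140-240 bp, and the paired-end ones 20-80, 50-130, 80-230 and 130-430 bp. The 50-130 library is given as starting from 40 nt in the study's text. Depth ran from 6097218 fragments in the 20-80 library to 32660817 tags in the 140-240 library, with 7892011 tags in the MNase library, and chromosome IV held from 1006522 to 5520615 of each. Because windows and steps of 1 library are not replicates, values are given with the standard deviation (SD) over steps of 100 kb and with no p-value.

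The right domain gave fewer tags than the rest of the chromosome in all 8 libraries, and the left domain gave about as many as the rest. In the 40-90 library the mean was 299 ± 39.2 5′ ends per kb in the left domain and 241 ± 33.2 in the right domain, against 301 ± 53.7 in the rest (SD over 25, 37 and 113 steps). In the MNase library it was 75.3 ± 11.5 and 67.1 ± 10.9 ends per kb in the left and the right domain, against 76.6 ± 16.3 in the rest. The gap between the right domain and the rest is therefore a little larger than 1 SD of the rest's steps in the 40-90 library, and smaller than 1 SD in the MNase library.

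Relative to the rest, coverage of the right domain was 0.740 in the 20-80 library, 0.801 in 40-90, 0.776 in 50-130, 0.820 in 90-140, 0.810 in 80-230, 0.907 in 140-240, 0.822 in 130-430 and 0.876 in the MNase library. The lowest of these ratios belongs to the shortest fragments and the highest to the 140-240 library, with no strict order by size in between. The left domain had 0.942 in the 20-80 library, 0.992 in 40-90, 0.970 in 50-130, 1.00 in 90-140, 0.976 in 80-230, 1.02 in 140-240, 0.968 in 130-430 and 0.983 in the MNase library. It lay below the rest in 6 of 8 libraries, by at most a few percent, while the right domain lay below the rest and below the left domain in 8 of 8.

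**Figure D1:**
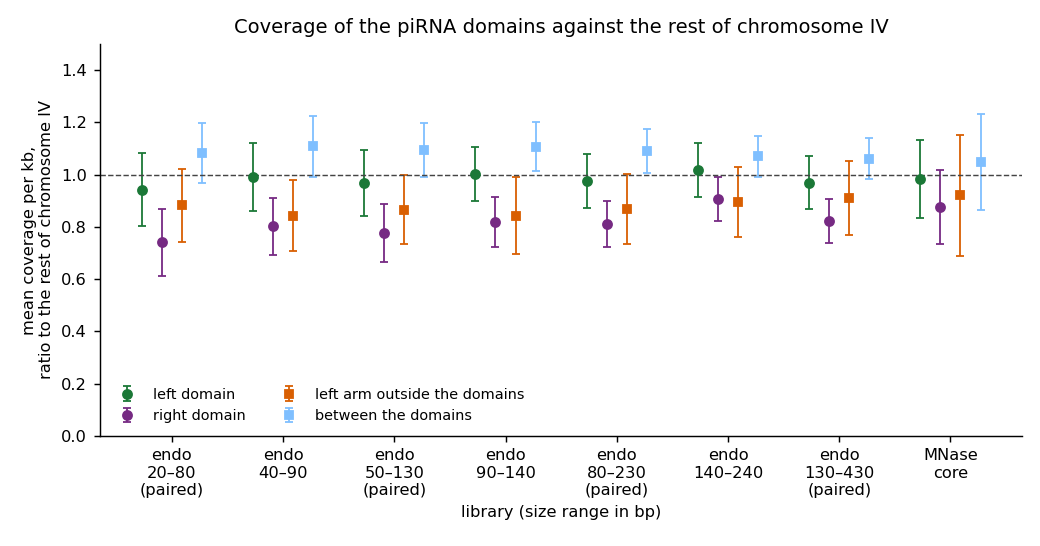
Mean coverage per kb divided by that of the rest of chromosome IV (y axis), in the 8 libraries ordered by fragment size (x axis), for the left and the right domain and, as squares, the left arm and the stretch between the domains; bars are the SD over 100-kb steps and the dashed line marks a ratio of 1. The right domain lies between 0.740 and 0.907 and the left domain between 0.942 and 1.02.

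The lower coverage of the right domain was spread over its length. In the 40-90 library 36 of its 37 steps lay below the median step of the rest, and in the MNase library 27 of 37 did. The left arm was alike, with 42 of its 45 steps below that median in the 40-90 library and 27 of 45 in the MNase library. Between the domains 12 of 65 steps were below it in the 40-90 library and 29 of 65 in the MNase library. In consecutive blocks of 500 kb the right domain had 262, 262, 281, 220, 221, 235 and 209 ends per kb in the 40-90 library, and 69.2, 74.1, 69.5, 66.3, 64.3, 69.7 and 60.3 in the MNase library. The last block was the lowest in both, and the 200 kb next to the outer border fall outside these 7 blocks. The 5 blocks of the left domain had 291, 282, 331, 293 and 296 ends per kb in the 40-90 library, all above every block of the right domain.

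What the domains are set against changes this picture, because the rest is not uniform. In the 40-90 library the left arm had 0.842 and the stretch between the domains 1.11 of the coverage of the rest. Set against the left arm alone, the right domain had 0.952 of its coverage in the 40-90 library, 0.839 in the 20-80 library, 1.01 in the 140-240 library and 0.952 in the MNase library. The right domain and the left arm both lie outside the middle of the chromosome.

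Windows of low coverage were more frequent in the right domain than in the rest. Compared with the left arm, the order depended on the library. Of the 1-kb windows, 212 of 2500 in the left domain (8.48%) and 483 of 3700 in the right domain (13.1%) had less than 0.5 times the chromosome's median in the 40-90 library, against 949 of 11293 in the rest (8.40%) and 9.4% of all windows of the chromosome. In the MNase library 295 windows of the left domain (11.8%) and 602 of the right domain (16.3%) were that low, against 1664 in the rest (14.7%) and 14.6% of the chromosome. Windows with no tag in any library made up 1.28% of the left domain (32 windows) and 0.946% of the right domain (35), against 1.14% of the rest (129). How much of each window can be mapped uniquely was not tested.

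The paired-end libraries give each fragment a measured length. In the 20-80 library the coverage of the right domain relative to the rest was lowest at the shortest lengths. At the single lengths where the 20-80 library has its peaks, coverage of the right domain relative to the rest was 0.632 at 28 nt, 0.665 at 38 nt, 0.724 at 48 nt, 0.751 at 59 nt, 0.758 at 69 nt and 0.793 at 79 nt. The left domain had 0.818, 0.916, 0.933, 0.974, 0.959 and 1.00 at the same lengths. Over all lengths in that library, fragments of 20 to 59 nt had 0.719 and fragments of 60 to 99 nt 0.766 of the coverage of the rest in the right domain. The shift in makeup is small: fragments of 20 to 59 nt were 54.5% of the fragments in the left domain (exact binomial 95% interval 54.2 to 54.7) and 53.7% in the right domain (53.5 to 54.0), against 55.3% in the rest (55.2 to 55.4). These intervals cover counting error only.

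In the 50-130 library fragments of 20 to 59 nt were 30.2% in the left and 29.4% in the right domain, against 30.7% in the rest, and their coverage in the right domain was 0.744 of the rest, with 0.813 for fragments of 100 to 139 nt. The libraries of longer fragments had no such order by length. In the 130-430 library the right domain had 0.837 of the coverage of the rest at 60 to 99 nt and 0.794 at 100 to 139 nt. Fragments of 140 to 169 nt, the length of a nucleosome core, were 49.3% of that library in either domain, against 49.4% in the rest. In the 80-230 library the ratio at single peaks lay between 0.786 and 0.834 in the right domain and between 0.928 and 1.02 in the left domain, and the shortest peak of the right domain, at 79 nt, had 0.793.

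DNA lying on a protein surface is exposed to a nuclease on one face of each helical turn, so that cuts on 1 strand recur about every 10 nt. This was measured by counting pairs of 5′ ends on the same strand at each distance. The 10-nt share is the amplitude of the best wave with a period of 9.8 to 10.7 nt, as a percentage of the mean number of pairs over 100 nt of distance. In the 40-90 library the left domain had a share of 25.8% at 1 to 100 nt, 7.14% at 101 to 200, 2.22% at 201 to 300, 1.37% at 301 to 400 and 0.878% at 401 to 500 nt. The right domain had 31.3%, 7.76%, 2.43%, 1.08% and 0.678% at these distances. The rest had 27.8%, 8.13%, 2.50%, 0.904% and 0.369%.

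The regular cutting therefore weakened with distance in both domains as it did in the rest. To give the spread within the rest, it was divided into 5 stretches of about the left domain's length, whose shares ran from 24.5 to 35.5% at 1 to 100 nt, from 6.51 to 12.0% at 101 to 200 and from 2.03 to 4.29% at 201 to 300 nt. Both domains fell within these ranges. At 401 to 500 nt the left domain's 0.878% lay above the range of 0.304 to 0.776%. With each position counted once it had 0.462%, within the range of 0.190 to 0.501%, and the right domain 0.502%, just above it. Counted once, the left domain exceeded the highest stretch in 50-130 (0.484 against 0.378%) and 130-430 (0.279 against 0.217%). It did so narrowly in 90-140 (0.375 against 0.351%) and 80-230, and not in 20-80 or 140-240. The right domain exceeded the highest stretch in 20-80 (0.931 against 0.704%), 50-130 (0.620%) and 140-240 (0.379 against 0.304%), but not in 90-140, 80-230 or 130-430. The right domain's 31.3% at 1 to 100 nt in the 40-90 library rests in part on 1 window, described with the named windows. Without it the share was 28.7%.

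**Figure D2:**
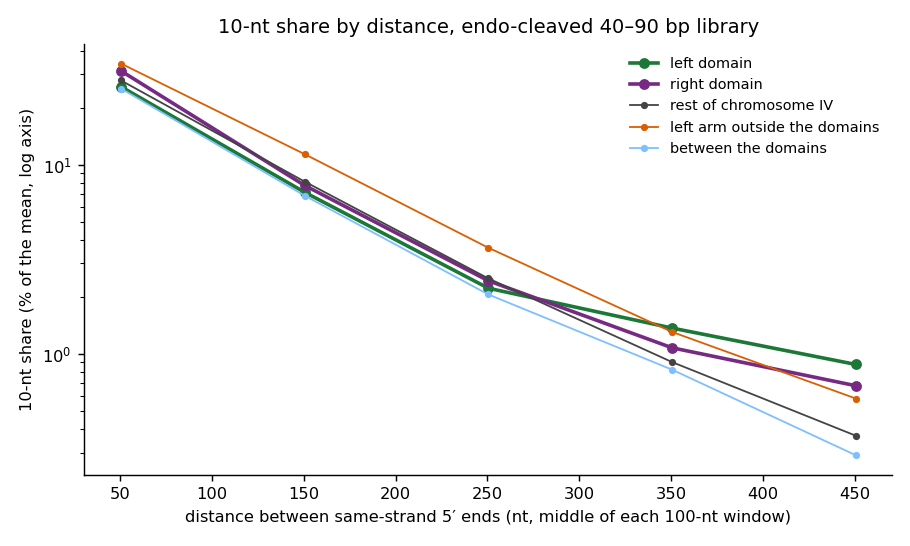
The 10-nt share of the 40-90 library, in percent on a log axis, against the distance between same-strand 5′ ends, each point at the middle of a window of 100 nt, for both domains, the rest, and the left arm and the stretch between the domains on their own. Both domains decline with distance as the rest does, with 25.8 and 31.3% at 1 to 100 nt and under 1% at 401 to 500 nt.

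At 101 to 200 nt, a distance at which pairs mostly join different fragments in the shorter libraries, the domains were at or below the rest in every endo-cleaved library. The left domain had 6.45% in the 20-80 library against 7.36% in the rest, 6.76% in 50-130 against 7.35%, 4.65% in 80-230 against 5.20%, and 2.87% in 130-430 against 3.21%. The right domain had 7.35% in the 20-80 library, 6.90% in 50-130, 4.73% in 80-230 and 3.08% in 130-430 against the same values. In the single-end libraries of longer fragments both domains had 3.67% against 3.96% in the 90-140 library, and the left domain 3.41% and the right domain 3.29% against 3.54% in the 140-240 library. In the MNase library the share was 1.24% in the left and 0.731% in the right domain, against 0.905% in the rest. These are small amplitudes: waves with periods near 7 or 14 nt reached 0.585% in the left and 0.916% in the right domain, against 0.679% in the rest. Read as 0.5 times the height of peaks above troughs, the MNase share was 3.36% in the left and 2.98% in the right domain.

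The differences of the endo-cleaved libraries are smaller than the SD of single 100-kb steps of either domain, and they depend on which part of the rest is used. Against the SD of 500-kb blocks, which is smaller, the left domain differed from the rest by more in 5 of 7 libraries and the right domain in 1, the 140-240 library. In the 40-90 library that SD was 0.690 percentage points for the left domain, and in the 80-230 library 0.237. The left arm had 11.4% and the stretch between the domains 6.85% in the 40-90 library, so that both domains lay between these. The left domain's 7.14% and the right domain's 7.76% were above the stretch between the domains and below the left arm.

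In steps of 100 kb the left domain was even and the right domain was not. The share at 101 to 200 nt in the 40-90 library ran from 4.88 to 9.93% over the 25 steps of the left domain (SD 1.33) and from 2.90 to 18.6% over the 37 steps of the right domain (median 6.32%, SD 4.08), against 3.82 to 24.5% over the rest (SD 3.58). A share over 10% was found in 0 of 25 steps of the left domain and in 10 of 37 of the right domain (27%), against 23.4% of the 175 steps of the chromosome. In the rest 31 of 113 steps passed it, 29 of them among the 45 of the left arm, 2 among the 65 between the domains and 0 among the 3 of the right end. The count for the right domain is thus close to that of the whole chromosome, and the left domain's count is below it.

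The highest steps of the right domain included a run of 4 at its outer edge. These last 4 steps, IV:16800001-17200000, had 16.9, 18.6, 15.0 and 13.8%, and the other 6 steps over 10% lay singly or in short runs among the first 33, such as IV:16400001-16500000 with 15.6%. The 3 steps outside the border had 7.24, 5.62 and 6.27%. With each position counted once the last 4 steps had 11.7, 11.5, 11.2 and 10.3%. These 4 steps were singled out after their values were seen.

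The other endo-cleaved libraries had the same pattern. Fitted together, the last 4 steps had 14.1% in the 20-80 library, against 6.51% in the first 33 steps and 6.95% at the right end. They had 15.8% against 6.86 and 6.37% in the 40-90 library and 12.9% against 6.18 and 5.10% in the 50-130 library. For longer fragments the last 4 steps had 5.40% against 3.50 and 3.28% in the 90-140 library, 6.96% against 4.49 and 4.74% in 80-230, 3.95% against 3.23 and 2.94% in 140-240, and 4.01% against 3.0 and 2.75% in 130-430. They were higher in 7 of 7 endo-cleaved libraries, also with each position or fragment counted once. The 40-90 library is among these and served to choose the steps, so its own result was set by that choice. The other libraries are no independent support. Over the 37 steps of the right domain, Spearman's rho between their shares and those of the 40-90 library ran from 0.472 to 0.893. In the MNase library the last 4 steps had 1.86% against 0.887 and 0.279%. Waves with periods near 7 or 14 nt reached 1.47% there, against 1.00% in the first 33 steps and 1.58% at the right end. No pattern is therefore read from these MNase values. In the 500-kb blocks of the right domain the share of the 40-90 library was 7.28, 6.15, 6.67, 7.75, 5.88, 7.81 and 11.7%. The block with the highest share was also the one with the lowest coverage. Over the 37 steps, though, Spearman's rho between coverage and share was 0.143 in this library. Over the endo-cleaved libraries it ran from −0.246 to 0.302.

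**Figure D3:**
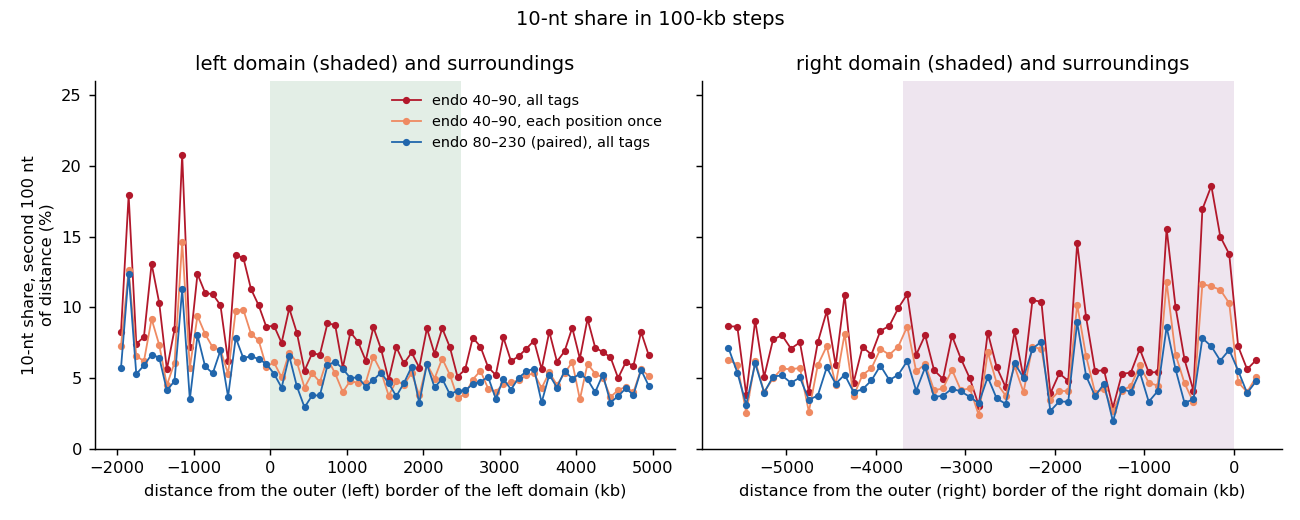
The 10-nt share at 101 to 200 nt, in percent, in each 100-kb step across the left domain (left panel) and the right domain (right panel), shaded, against the distance from the domain's outer border in kb; lines are the 40-90 library with all tags, the same with each position counted once, and the 80-230 library. The last 4 steps of the right domain have 16.9, 18.6, 15.0 and 13.8% with all tags of the 40-90 library, and the 25 steps of the left domain lie between 4.88 and 9.93%.

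Because arms and centres of the worm's chromosomes differ, each domain was also set beside the same relative positions on the other autosomes, I, II, III and V. At 101 to 200 nt the right domain had the lowest share of the 5 autosomes in 7 of 7 endo-cleaved libraries, with 7.76% in the 40-90 library against 9.8 to 13.5% on the others. With each position counted once it had 5.74% against 7.13 to 9.65%, and again it was the lowest in 7 of 7. The left domain lay within the range of the other autosomes in 6 of 7 libraries with each position counted once, and above it in the 140-240 library.

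Coverage at matched positions was taken relative to each chromosome's own mean. The right domain had 0.837 of it in the 40-90 library, inside the range of 0.811 to 0.899 on the other autosomes. In the 20-80 library it had 0.790 against 0.865 to 0.922. The right domain was the lowest of the 5 autosomes in 4 of 8 libraries, which were the 4 paired-end ones. The left domain was the lowest in 7 of 8, with 1.04 in the 40-90 library against 1.07 to 1.18. Low coverage relative to the own chromosome was thus shared by this position on all 5 autosomes in the single-end 40-90 library. The 10-nt share was compared between chromosomes as a percentage, not relative to each chromosome's own, so these comparisons are unlike. Within chromosome IV the right domain's share at 101 to 200 nt was 1.13 times that of the stretch between the domains in this library.

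**Figure D4:**
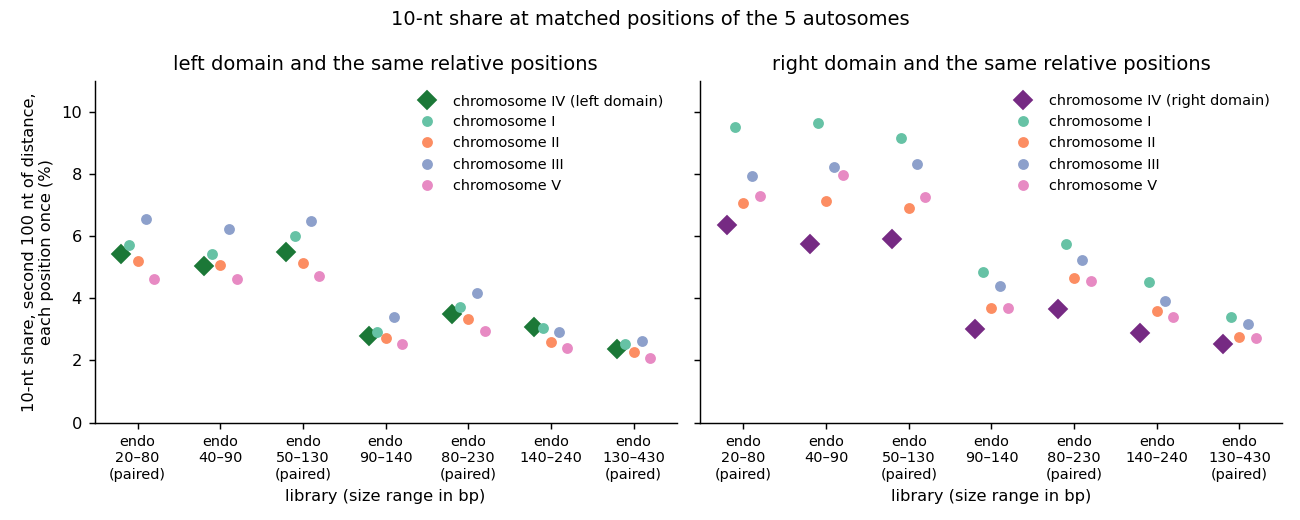
The 10-nt share at 101 to 200 nt with each position counted once, in percent, in the 7 endo-cleaved libraries, for the left domain (left panel) and the right domain (right panel) as diamonds and for the same relative positions on chromosomes I, II, III and V as circles. The right domain is the lowest of the 5 autosomes in each library, with 5.74% against 7.13 to 9.65% in the 40-90 library.

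Each of the 4 domain borders was read in 100-kb steps up to 500 kb inside and outside. Over the full 500 kb only the outer border of the right domain, at IV:17200000, separated the coverage of inside steps from that of outside steps. Its 5 inside steps averaged 222 ends per kb in the 40-90 library, against 304 in the 3 steps outside, a ratio of 0.729. The mean was 43.8 against 59.1 fragments per kb in the 20-80 library (0.742), 264 against 346 ends in the 140-240 library (0.764), and 60.5 against 89.8 ends in the MNase library (0.674). The inside and outside steps did not overlap in 8 of 8 libraries. The adjacent steps on both sides of the border had 242 and 318 ends per kb in the 40-90 library.

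The outside of this border is the last piece of the chromosome, and the same comparison was therefore made at the same distance from the right end of the other autosomes. In the 40-90 library the ratio was 0.829 on I, 1.13 on II, 0.901 on III and 0.809 on V. On these 4 chromosomes the steps of both sides overlapped in this library. In the 140-240 and 130-430 libraries the steps on chromosome I did not overlap either, with ratios of 0.830 and 0.791.

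At the other 3 borders inside and outside steps overlapped in coverage over 500 kb in all 8 libraries. Mean coverage inside was 0.95 to 1.08 times that outside at the outer left border, 0.83 to 0.90 at the inner left border and 0.87 to 0.99 at the inner right border. The 10-nt share at 101 to 200 nt was lower inside than outside the outer left border in 7 of 7 endo-cleaved libraries, with 7.97% against 11.4% in the 40-90 library. Inside the inner right border it was also lower in 7 of 7, with 7.22% against 8.17%. It was higher inside the inner left border in 6 of 7 and inside the outer right border in 7 of 7. Over 500 kb inside and outside steps overlapped in share at all 4 borders in every library. At the outer right border the overlap in the 40-90 library came from the innermost of the 5 steps, with 4.11%. Over 200 kb each side of this border the steps did not overlap in 6 of 7 endo-cleaved libraries, with 13.8 and 15.0% inside against 5.62 and 7.24% outside in the 40-90 library. These inside steps are among the 4 singled out above. Over 200 kb shares were also separate in 80-230 and 130-430 at the outer left border. They were so in 20-80 and 80-230 at the inner left and in 140-240 and 130-430 at the inner right border. Coverage at the inner left border was separate in every endo-cleaved library, with 313 and 314 against 358 and 364 ends per kb in 40-90.

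**Figure D5:**
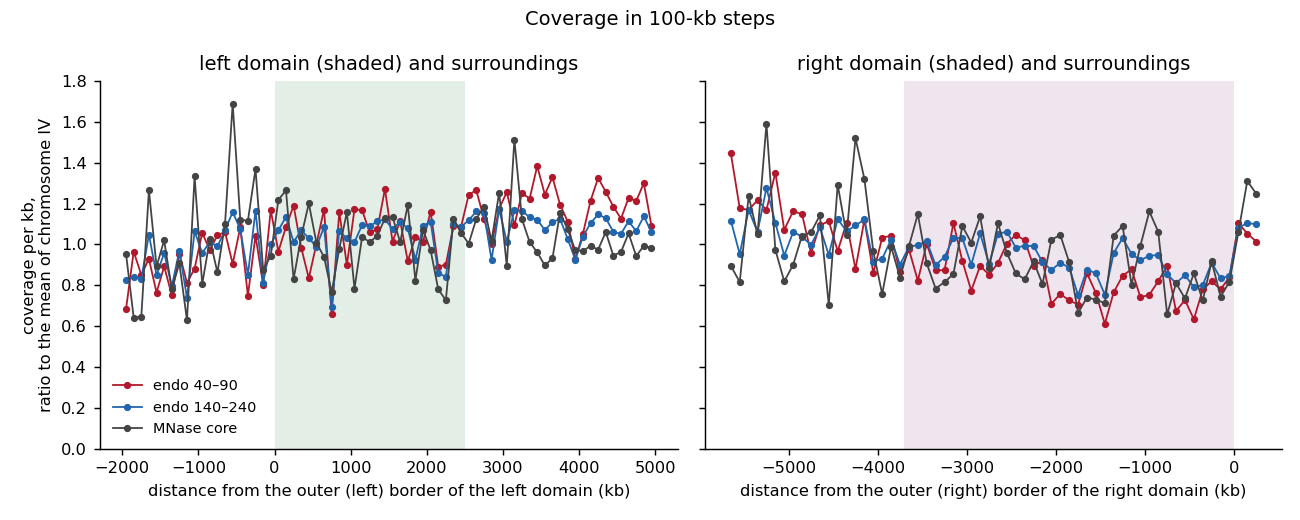
Coverage per kb relative to the mean of chromosome IV in each 100-kb step across the left domain (left panel) and the right domain (right panel), shaded, against the distance from the domain's outer border in kb, in the 40-90, 140-240 and MNase libraries. At the outer right border the 5 steps inside lie below the 3 steps outside, with means of 222 against 304 ends per kb in the 40-90 library.

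The period of the cutting lay near 10 nt in both domains and in the rest. Over distances of 1 to 1500 nt the 40-90 library had a period of 10.04 nt in the left domain, with 500-kb blocks between 9.97 and 10.30 nt (SD 0.124), and of 10.06 nt in the right domain, with blocks between 10.10 and 10.36 nt (SD 0.118), against 10.10 nt in the rest. The value fitted to the whole right domain lies just below the range of its blocks. The left domain had 10.31 nt in the 50-130 library (block SD 0.132), against 10.07 nt in the rest, and 10.19 nt in the 80-230 library (block SD 0.0798), against 10.09 nt. These gaps exceed 1 SD of the left domain's blocks and lie within the range of the rest's blocks. They depended on the fit. In the 50-130 library the left domain's period was 10.12 nt without a taper and 10.07 nt over distances of 1 to 500 nt. In the 80-230 library it was 10.07 nt over 1 to 500 nt. The rest was not refitted in these ways. The crests of the pair counts lay at 10, 21, 31, 41, 52, 62, 72, 82, 93 and 103 nt in the left domain and in the rest. The right domain had the same crests except for 48 nt in place of 52 nt, with 174247 pairs there against 162680 at 41 nt. It also holds a window with 582 ends at 1 position, in a step with a share of 73.6% at 1 to 100 nt. Whether the crest at 48 nt remains without that window was not tested.

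Nucleosome repeat lengths in the MNase library were alike in the domains and the rest. In this library pairs of ends recurred every 183 nt in the left domain, with blocks between 181.5 and 183.5 nt (SD 0.758), and every 182.5 nt in the right domain, with blocks between 180.5 and 184.5 nt (SD 1.64). The rest had 183 nt, with blocks between 177 and 190.5 nt. The left arm had 181 nt and the stretch between the domains 183.5 nt, and matched positions on the other autosomes had 180.5 to 184.5 nt. The right domain's blocks had 180.5, 184, 180.5, 181.5, 181.5, 184.5 and 181 nt, with no trend along the chromosome.

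At the borders the repeat length in the MNase library was 183 nt inside and 180.5 nt outside the outer left border, 181.5 against 184.5 nt at the inner left, 180.5 against 183 nt at the inner right and 181 against 184 nt at the outer right border. These differences of a few nt are within the range of the rest's blocks. A repeat could also be fitted in the endo-cleaved single-end libraries, where it was 188.5 nt in the left and 188 nt in the right domain, against 188 nt in the rest, in the 40-90 library. It was less settled there: the right domain's value was 185 nt from distances above 200 nt and went to 220 nt, the edge of the search, without a taper. In the 90-140 library the repeat was 188.5 nt in the left domain (block SD 0.822) and 186 nt in the right domain, against 185 nt in the rest, whose blocks ran from 179 to 191 nt. The left domain's value was 187 nt without a taper. From distances above 200 nt it was 186.5 nt in the left and 183.5 nt in the right domain.

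Fragment length peaks up to 120 nt stood within 1 nt of the same places in the domains as in the rest. In the 20-80 library both domains and the rest had peaks at 28, 38, 48, 59, 69 and 79 nt, steps of about 1 helical turn. In the 50-130 library the sixth peak was at 100 nt in both domains, against 99 nt in the rest. The most frequent length was 69 nt in the 20-80 and 50-130 libraries and 79 nt in the 80-230 library, in either domain as in the rest. In the 130-430 library it was 146 nt in the left and 145 nt in the right domain, against 145 nt in the rest, close to the length of DNA around 1 nucleosome core. Median lengths were 59, 69, 100 and 157 nt in the 4 paired-end libraries, in either domain and in the rest.

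The period of this ladder of lengths was nearly the same in every region. It was 10.41 nt in the left and 10.42 nt in the right domain, against 10.40 nt in the rest, in the 20-80 library, and 10.33 and 10.34 nt against 10.33 nt in the 50-130 library. For longer fragments it was 10.82 and 10.83 nt against 10.84 nt in the 80-230 library, and 10.91 and 10.93 nt against 10.91 nt in the 130-430 library.

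Cuts on opposite strands were offset in the domains as in the rest. Pairs of 5′ ends facing away from each other were, among gaps of 1 to 6 nt, most frequent at 3 nt in the 40-90 library. Their number there was 1.43 times the median over gaps of 1 to 40 nt in the left and 1.40 times in the right domain, against 1.46 times in the rest. The gap was 3 nt in the 20-80 and 50-130 libraries too, and 4 nt in the 4 libraries of longer fragments. The MNase library showed no such excess. There, ends facing each other were most often 149 nt apart in the left and 148 nt in the right domain, against 151 nt in the rest, with 1.78, 1.88 and 1.75 times the median number of pairs at 200 to 299 nt.

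Endo-cleaved and MNase coverage went together to different degrees in both domains. Over 1-kb windows, Spearman's rho between the 40-90 and the MNase library was 0.0788 in the left and 0.317 in the right domain, against 0.182 in the rest, with 0.359 in the left arm and −0.0331 between the domains. Endo-cleaved libraries went together more closely, and rho between 40-90 and 50-130 was 0.770 in the left and 0.741 in the right domain, against 0.824 in the rest. The windows of a pair of libraries share base composition and mappability, and these values are descriptions.

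Within the left domain the step with the highest share at 101 to 200 nt in the 40-90 library was IV:4700001-4800000, with 9.93% and 343 ends per kb, and the lowest was IV:6000001-6100000, with 4.88%. The ratio of 40-90 ends to MNase ends was highest at IV:5500001-5600000 (5.78) and lowest at IV:4900001-5000000 (2.69). In the right domain the share was highest at IV:16900001-17000000 (18.6%) and lowest at IV:15800001-15900000 (2.90%). The ratio there was highest at IV:16400001-16500000 (5.26), a step whose share was 15.6%, and lowest at IV:16200001-16300000 (2.51).

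The window with the most ends in the 40-90 library was IV:5363001-5364000 in the left domain, with 624 ends and at most 9 at any position, close to the next window's 621. In the right domain it was IV:13549001-13550000, with 1663 ends, against 620 in the next. This window held 582 ends at 1 position and 5.71 times the median of 291 ends, and 260 ends in the MNase library. Without it the right domain's share at 1 to 100 nt was 28.7%, against 31.3% with all windows. In the MNase library the highest windows were IV:6006001-6007000 in the left and IV:16317001-16318000 in the right domain, with 278 ends each.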

How the data were processed

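Chromatin DNA of fer-1(b232) oocytes was sequenced in 8 libraries, 1 per condition. The deposited single-end lists give a whole-number count of tags per position and strand, and the deposited paired-end lists a count of read pairs per fragment; the authors did not normalize them. A score in the authors' single-end lists, a display shade, was not used. Fragments were size-selected, blunted, ligated and amplified by the authors. Both reads of a pair had to match perfectly at a unique position; the single-end rule, the build and the handling of PCR duplicates are not given in the sources used here. The submitters' processing notes name Bowtie 0.12.7.

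Tags were placed at the 5′ end of their 25 mapped nt, and fragments at their midpoint for coverage and at both ends for pairs. The 10-nt share is the height of the best-fitting wave, on a baseline of degree 2, as a percentage of the mean pair count; periods and repeats (120 to 220 nt) are periodogram maxima after a polynomial baseline in log distance with a Hann taper. Lengths were scaled by a smoothed histogram (Gaussian, SD 6 nt) before the ladder was fitted. Spread is the SD over 100-kb steps or 500-kb blocks. The calculations were tested on simulated data and run with numba 0.67.0, pandas 2.3.3, Matplotlib 3.10.9, SciPy 1.17.1 and NumPy 2.4.6 under Python 3.11.15. With 1 library per condition no test between conditions was made.

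The domains, the measures and the alternatives were chosen with earlier results of these data known. Regions were named by rule: in each domain the steps with the highest and lowest share at 101 to 200 nt and ratio of 40-90 to MNase ends, and the fullest window of both libraries. Alternatives took each position or fragment as 1 tag, dropped high windows, trimmed 200 kb from the borders, and changed the reference, the definition of the share, the distances, the taper, the size baseline and the size range. Left out were base composition, 21U-RNA motifs and A/T runs, which were not analysed here for want of a genome of the lists' build.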

Additional observations from a re-analysis of the deposited data

How the results depend on the processing

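Of 848 values under alternatives, for 204 results, 770 stayed within the spread over steps or blocks. That spread was wide in the right domain, with an SD of 4.08 percentage points for its share of 7.76% in the 40-90 library. Of the 78 outside it, 61 belonged to results not treated as headline. Among these, the left domain's share at 1 to 100 nt in the 40-90 library was 19.3% with each position counted once. The other 17 belonged to headline results and follow here. The coverage ratio of the right domain, set against the same positions of the other autosomes, was 0.940 in the 40-90 library, 0.960 in 90-140, 1.00 in 140-240 and 0.909 in 80-230. With each position or fragment counted once, the left domain's share at 101 to 200 nt was 5.05% in the 40-90 library, 2.80% in 90-140 and 3.48% in 80-230. The ratio of that share between the right domain and its reference was 0.573 in the 80-230 library against the other autosomes. This reference is raised by chromosome V, with 12.7% against 7.40% on I, 6.08% on II and 6.87% on III. With each position counted once chromosome V had 4.57%, and the right domain had 3.65% against 4.57 to 5.74% on the other autosomes. The size period of the 20-80 library was 10.44 nt in the left and 10.45 nt in the right domain with a smooth of SD 8 nt, and in the right domain 10.41 nt with each fragment counted once and 10.38 nt over the 5th to 95th percentile of sizes. Over these percentiles the 80-230 library had 10.6 nt in both domains. Against flanks of 1 Mb, the share of fragments in the 130-430 library was 1.02 times the reference at 60 to 99 nt and 0.985 at 100 to 139 nt in the left domain, and 0.992 at 140 to 169 nt in the right domain.

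Alternatives chosen after seeing the data were the right domain without its last 4 steps, the stretch between the domains as the reference, and the 5 stretches of the rest. Against the stretch between the domains, the share at 101 to 200 nt in the 40-90 library was 1.04 times the reference in the left and 1.13 times in the right domain, where the whole rest gave 0.878 and 0.954. Without its last 4 steps the right domain had 0.844 times the share of the rest. The causes were not tested. Counts per step limit the MNase share to blocks of 500 kb, and the spread between oocyte preparations is not known.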
